A study of Mus musculus with 2 samples.

Results

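The GATA transcription factors and their Fog partners were followed here through 8 genes taken by symbol, *Gata1* to *Gata6*, *Zfpm1* and *Zfpm2*, out of 22096 symbols in the deposited tables; all 8 were found, each as 1 RefSeq transcript. Transcript abundance had been measured by RNA sequencing in ScxGFP-positive cells and in ScxGFP-negative cells, sorted from forelimbs of E13.5 mouse embryos whose strain background was mixed. Both groups came from limbs with the ScxGFP reporter, a green fluorescent protein gene under regulatory sequence of *Scx*, which encodes the tendon progenitor factor scleraxis. Each group was 1 library, and 6 forelimbs (3 pairs) had been pooled for the sort, so the differences below have no replicate check and no test, and they describe these 2 libraries. The negative group is every cell of the limb without reporter signal and not a cell type.

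GATA factors are zinc finger proteins that bind the DNA letters GATA. *Gata1*, *Gata2* and *Gata3* are best known from blood, *Gata2* from endothelium and mast cells and *Gata3* from T cells and epidermis as well, whereas *Gata4*, *Gata5* and *Gata6* are known from heart, gut and other mesoderm and endoderm. *Gata6* has been studied in mouse limb buds, where it restricts *Shh*. *Zfpm1* and *Zfpm2* encode Fog1 and Fog2, zinc finger cofactors that bind a finger of GATA proteins and recruit the NuRD complex and CtBP proteins to their targets.

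Values are the deposited FPKM (fragments scaled by transcript length and library size), so levels can be compared between genes. Differences are log2((FPKM in positive cells + 1) / (FPKM in negative cells + 1)), a scale on which differences between low values shrink. A gene was called higher or lower when it differed by at least 2-fold on that scale. *Scx* had 134 FPKM in positive cells, against 1.69 in negative cells, in the direction of the sort. *Tbx5*, which marks forelimb mesenchyme, had 27.4 FPKM in positive cells, against 15.9 in negative cells, so the tissue label and the sort both met their marker. The deposited ratio of coverage to FPKM was 2.28 for positive cells and 2.39 for negative cells, so total mapped sequence was alike under the usual scaling of FPKM.

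The sequence around the start of the genes that were called lower, *Gata1*, *Gata2* and *Gata3*, is shown. It was searched for GATAA, one form of the site of GATA factors themselves, and for CACCC boxes, which Kruppel-like factors bind. The windows are RefSeq promoters of build GRCm38.p6, 300 bases each, 5′ to 3′ on the gene's strand, with CACCC on either strand (CACCC or GGGTG) in capitals. *Gata2* has 2 windows, chr6:88193641-88193940 and chr6:88198414-88198713 on the plus strand. That of *Gata1* is chrX:7967861-7968160 and that of *Gata3* chr2:9878551-9878850, both on the minus strand.
Gata1: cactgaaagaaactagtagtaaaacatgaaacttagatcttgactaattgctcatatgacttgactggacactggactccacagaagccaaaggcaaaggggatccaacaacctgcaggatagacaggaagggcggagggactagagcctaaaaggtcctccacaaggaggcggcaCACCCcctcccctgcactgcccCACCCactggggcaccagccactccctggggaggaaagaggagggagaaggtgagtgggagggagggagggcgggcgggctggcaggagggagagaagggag
Gata2, first start: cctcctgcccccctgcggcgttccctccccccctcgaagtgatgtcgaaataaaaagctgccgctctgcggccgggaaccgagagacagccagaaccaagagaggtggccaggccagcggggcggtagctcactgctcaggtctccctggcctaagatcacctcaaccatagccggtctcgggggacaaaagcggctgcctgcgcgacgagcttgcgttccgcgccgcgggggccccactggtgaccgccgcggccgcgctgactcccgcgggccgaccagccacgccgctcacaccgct
Gata2, second start: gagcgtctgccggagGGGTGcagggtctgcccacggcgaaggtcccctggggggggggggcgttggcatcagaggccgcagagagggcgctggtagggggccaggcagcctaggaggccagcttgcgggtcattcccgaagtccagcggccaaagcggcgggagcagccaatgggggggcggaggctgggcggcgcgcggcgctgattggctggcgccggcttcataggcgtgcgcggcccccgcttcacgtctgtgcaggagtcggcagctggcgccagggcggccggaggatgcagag
Gata3: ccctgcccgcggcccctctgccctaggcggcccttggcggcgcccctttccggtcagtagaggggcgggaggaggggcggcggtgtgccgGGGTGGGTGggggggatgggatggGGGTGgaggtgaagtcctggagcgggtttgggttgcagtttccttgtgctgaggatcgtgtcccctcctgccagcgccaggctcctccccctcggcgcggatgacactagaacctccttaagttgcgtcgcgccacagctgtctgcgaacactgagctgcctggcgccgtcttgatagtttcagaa

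The second *Gata2* start lies 8369 bases from the annotated gene end in GRCm38, and the *Gata2* transcript in the deposited tables spans 8369 bases in mm9. The first start lies 13142 bases from that end. In mice the first start is used chiefly in blood-forming cells and the second more widely, and since the tables hold 1 *Gata2* transcript, use of the starts was not resolved. The window of *Gata1* held 2 CACCC boxes, that of *Gata3* 3, of which 2 overlap (GGGTGGGTG), the second *Gata2* window 1 and the first 0. Among 32851 promoter windows of this length, 57.5% held at least 1. GATAA on either strand (GATAA or TTATC) occurred 0 times in these 4 windows and was present in 25.4% of all windows. Other words with the letters GATA were not searched, and GATAG stands in the printed windows of *Gata1* and *Gata3*. The windows are therefore not free of GATA letters. The E-box CANNTG, bound by the partner Tal1 with E proteins, occurred once each in the windows of *Gata1*, *Gata3* and the second *Gata2* start, in 72.3% of all windows, and none of these overlapped a CACCC box. These are letter matches in a short window and do not show binding, and distal elements were not searched.

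Of the 8 genes, 3 were called lower in ScxGFP-positive cells (*Gata1*, *Gata2* and *Gata3*), 0 were called higher and 5 were within 2-fold. On the FPKM + 1 scale a gene under 1 FPKM in positive cells cannot be called higher, and one under 1 FPKM in both libraries cannot be called at all, so part of this outcome was fixed by the levels: none of the 8 could be called higher, and *Gata4*, *Gata5* and *Gata6* could not be called either way. Over all 22090 genes with a value in both libraries, 5.46% were called lower and 2.21% higher. No member reached 1 FPKM in positive cells, while 5 reached it in negative cells: *Gata1*, *Gata2*, *Gata3*, *Zfpm1* and *Zfpm2*. Those 5 passed a filter of at least 1 FPKM in one library only through the library in which they are higher, so that any difference had to be downward. Of 12096 genes past that filter 9.98% were called lower and 4.03% higher. Of the 1344 genes that, like these 5, reached 1 FPKM in the negative library only, 51.8% were called lower, so the count of 3 called among the 5 is close to that background.

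**Figure D1:**
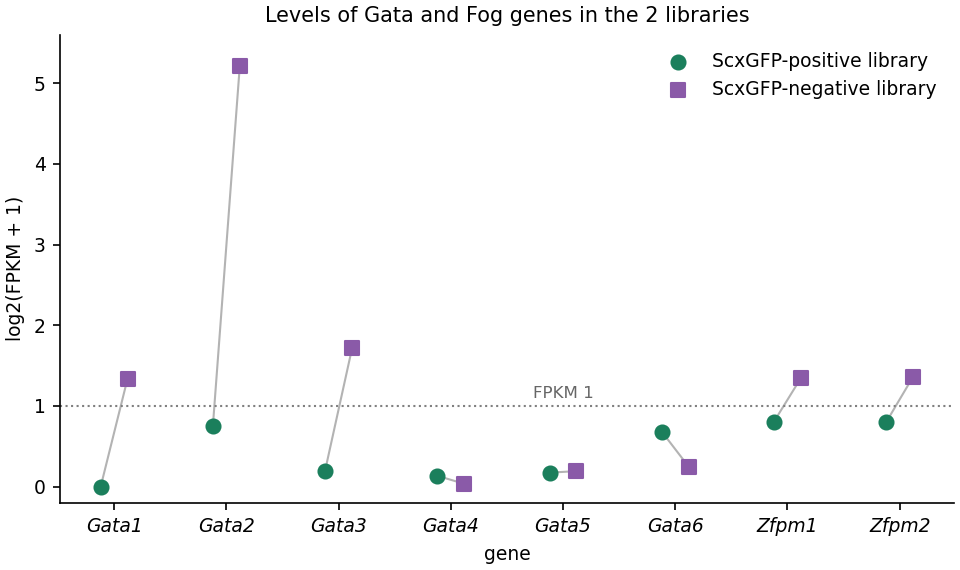
Level of each Gata and Fog gene as log2(FPKM + 1) in the ScxGFP-positive library (circles, left) and the ScxGFP-negative library (squares, right), 1 library each, so without error bars. All 8 circles lie below the dotted line at 1 FPKM, 5 squares lie above it, and Gata2 has the widest gap.

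*Gata2*, a factor of blood progenitors, mast cells and endothelium, had the largest difference of the 8. Its FPKM was 0.687 in ScxGFP-positive cells, against 36.2 in ScxGFP-negative cells, for a log2 ratio of −4.46 (NM_008090, mm9 chr6:88148658-88157026). In positive cells it stood at 1.90% of its negative level. The value in positive cells rests on 5086 aligned bases and that in negative cells on 280508, taken as the deposited coverage times transcript length. Among 22090 genes *Gata2* ranked 11612th in the positive library and 668th in the negative library, and its ratio was the 69th lowest of 12096 measured genes. It was called lower under every alternative tried, with a log2 ratio between −5.53 and −2.86.

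*Gata1*, the regulator of red cell, megakaryocyte and mast cell differentiation, was listed at 0 FPKM in ScxGFP-positive cells and at 1.53 in ScxGFP-negative cells (NM_008089, mm9 chrX:7536386-7544941). An exact 0 in such a table can be a failed estimate, although the row has status OK, so no fold is given; its log2 ratio of −1.34 is set by the pseudocount of 1 and bounds nothing. The negative value rests on 6611 aligned bases. *Gata3*, a factor of T cells, epidermis and hair follicles, had 0.148 FPKM in positive cells, against 2.28 in negative cells, for a log2 ratio of −1.51 (NM_008091, mm9 chr2:9778705-9800227). Its positive level was 6.50% of the negative one and rests on 1089 aligned bases, against 17505 in the negative library. With a pseudocount of 5 neither gene was called, at log2 ratios of −0.39 for *Gata1* and −0.50 for *Gata3*.

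*Gata4*, *Gata5* and *Gata6*, the heart and gut branch of the family, lay under 1 FPKM in both libraries. *Gata6* had 0.605 FPKM in ScxGFP-positive cells (4413 aligned bases), against 0.187 in ScxGFP-negative cells (1427 aligned bases; NM_010258, mm9 chr18:11052508-11085633). The FPKM in positive cells was 3.23 times that in negative cells, but on the FPKM + 1 scale its log2 ratio was 0.44, within 2-fold. With a pseudocount of 0.1 the log2 ratio was 1.30, past 2-fold, although *Gata6* does not reach 1 FPKM in either library. *Gata4* had 0.0981 FPKM in positive cells, on 760 aligned bases, against 0.0251 in negative cells, on 203. In genes with 1 transcript longer than 1000 bases, the lowest 1% of values above 0 rest on fewer than 47.2 aligned bases for positive cells and 48.9 for negative cells. The *Gata4* value of negative cells lies above that mark, but rests on fewer aligned bases than any other member value above 0. *Gata5* had 0.128 FPKM in positive cells, against 0.143 in negative cells, and its log2 ratio of −0.02 turned positive, up to 0.06, under each rescaling of the libraries.

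The GATA genes made up different mixtures in the libraries. Their summed FPKM was 1.67 in ScxGFP-positive cells and 40.4 in ScxGFP-negative cells. *Gata2* gave 41.2% of the sum in positive cells and 89.7% in negative cells, and *Gata6* gave 36.3% in positive cells and 0.463% in negative cells. Without *Gata2* the sum was 0.979 FPKM in positive cells, against 4.17 in negative cells. *Gata4*, *Gata5* and *Gata6* together summed to 0.831 FPKM in positive cells (49.9% of the family), against 0.355 in negative cells (0.88%). Shares within a library do not depend on how the libraries are scaled to each other, but those of positive cells rest on sums under 2 FPKM.

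**Figure D2:**
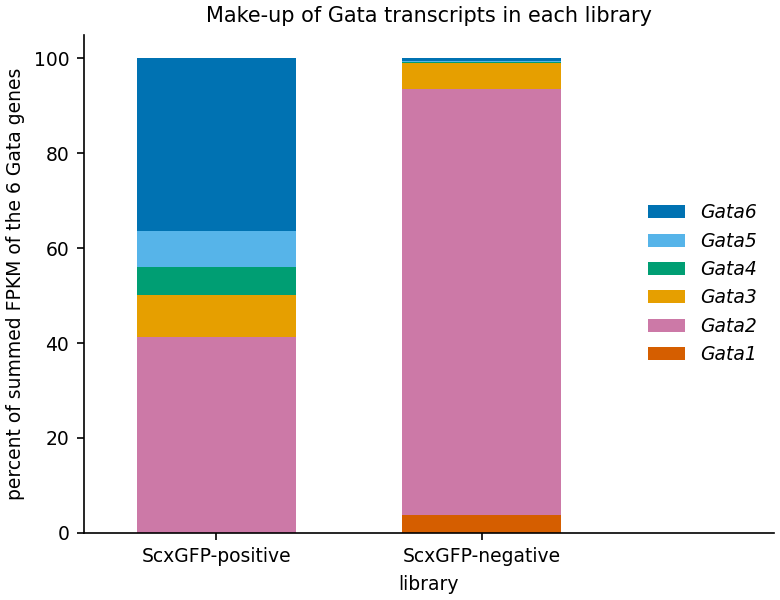
Percent of the summed FPKM of the 6 Gata genes taken by each gene in the ScxGFP-positive library (left bar) and the ScxGFP-negative library (right bar), 1 library each. Gata2 takes 41.2% of the left bar and 89.7% of the right bar, and Gata6 takes 36.3% of the left bar.

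The Fog genes differed less than *Gata2* and were within 2-fold on the FPKM + 1 scale. *Zfpm1*, the Fog1 gene, which acts with Gata1 in red cells and megakaryocytes, had 0.749 FPKM in ScxGFP-positive cells, against 1.54 in ScxGFP-negative cells, for a log2 ratio of −0.54 (NM_009569, mm9 chr8:124806041-124861147). *Zfpm2*, the Fog2 gene, which acts with Gata4 in heart and gonad, had 0.741 FPKM in positive cells, against 1.57 in negative cells, for a log2 ratio of −0.56 (NM_011766, mm9 chr15:40486588-40936138). Levels in positive cells were 48.5% (*Zfpm1*) and 47.1% (*Zfpm2*) of those in negative cells. All measured genes had a median log2 ratio of −0.27, and relative to it the ratio of *Zfpm1* was −0.27 and that of *Zfpm2* −0.30. Both remained below 0 and were not called under each alternative that kept them, from −0.95 to −0.19 for *Zfpm1* and from −0.99 to −0.19 for *Zfpm2*. Summed, the Fog genes had 1.49 FPKM in positive cells, against 3.11 in negative cells, so their sum was 0.894 of the GATA sum in positive cells and 0.0771 of it in negative cells.

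In positive cells the order of levels was *Zfpm1*, *Zfpm2*, *Gata2*, *Gata6*, *Gata3*, *Gata5*, *Gata4* and *Gata1*, and in negative cells *Gata2*, *Gata3*, *Zfpm2*, *Zfpm1*, *Gata1*, *Gata6*, *Gata5* and *Gata4*. With 1 library each, no neighbours in these orders can be said to differ beyond a replicate spread. The median log2 ratio of the 8 genes was −0.55, which falls between *Zfpm1* and *Zfpm2*. That of all 22090 genes was −0.04, and that of measured genes was −0.27. Many of the 22090 lie under 1 FPKM in both libraries, where the pseudocount draws ratios towards 0. Of the 8, 5 reached 1 FPKM in the negative library only, so these medians show no shift of the family. In bulk libraries such as these, fewer cells of a type and less RNA per cell cannot be told apart.

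**Figure D3:**
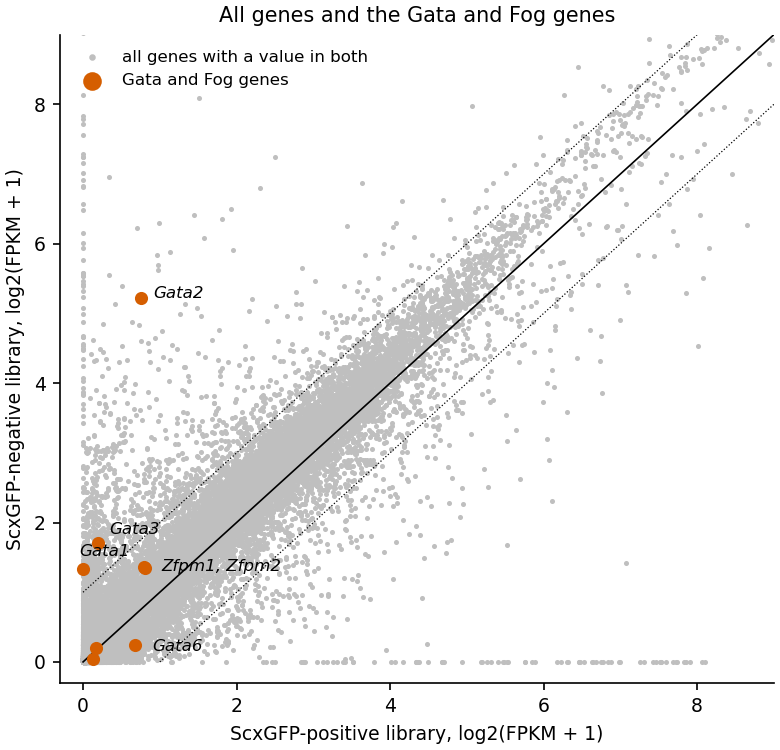
Level of every gene with a value in both libraries (grey) and of the Gata and Fog genes (orange), as log2(FPKM + 1) in the ScxGFP-positive library (x) and the ScxGFP-negative library (y); the solid line marks equal levels, the dotted lines 2-fold, and 50 genes lie beyond the axes. Gata2 lies far above the upper dotted line, Gata1 and Gata3 above it near the left edge, and the other 5 between the lines.

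Of 14 genes for partners with which GATA factors form complexes in blood and endothelium, 13 were measured and 8 were called lower in ScxGFP-positive cells, while the widely expressed *Ldb1*, *Tcf3* and *Tcf12* were within 2-fold. Of the 13, 6 were under 1 FPKM in positive cells and could not be called higher; all 6 were called lower, beside the 51.8% of all such genes. Of the 7 with at least 1 FPKM in positive cells 2 were called lower, *Runx1* and *Fli1*, and 0 higher, beside 4.75% lower and 4.54% higher among the 10752 genes at that level. With a pseudocount of 5, 3 of the 13 were called lower. The myeloid ETS factor gene *Sfpi1* (PU.1), which antagonises Gata1, had 0.251 FPKM in positive cells, against 17.6 in negative cells. *Tal1*, encoding the bHLH protein of the GATA complex, had 0.0845 FPKM in positive cells, against 4.10 in negative cells. *Lmo2*, the gene of its LIM bridging protein, had 0.680 FPKM in positive cells, against 11.2 in negative cells, and *Lyl1*, a relative of *Tal1*, 0.271 in positive and 5.90 in negative cells. The other genes called lower were *Runx1* (1.11 FPKM in positive, 5.82 in negative cells), *Fli1* (4.16 in positive, 12.8 in negative), the red cell factor *Klf1* (0.172 in positive, 2.21 in negative) and *Nfe2* (0.148 in positive, 1.68 in negative). These 8 are known from blood or endothelium, as are *Erg* and *Cbfa2t3* (ETO2), which were not called; *Cbfa2t3*, named after its values were seen, had 1.17 FPKM in positive cells, against 3.24 in negative cells. The adaptor gene *Ldb1* had 19.0 FPKM in positive cells, against 28.5 in negative cells. The E protein gene *Tcf3* had 19.4 in positive and 21.2 in negative cells, and *Tcf12* 22.5 in positive and 16.8 in negative cells. *Erg*, an ETS factor of endothelium and also cartilage, had 5.26 FPKM in positive cells, against 7.17 in negative cells. *Gfi1b* was listed at 0 in positive cells and at 0.583 FPKM in negative cells.

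Genes for mesodermal partners of Gata4, Gata5 and Gata6 went both ways. *Hand2*, a bHLH factor of heart and limb, was called higher, at 10.3 FPKM in ScxGFP-positive cells, against 3.53 in ScxGFP-negative cells. So was *Nr2f2*, encoding the Fog2-binding nuclear receptor COUP-TFII, at 7.53 FPKM in positive cells, against 2.33 in negative cells. *Mef2c*, a factor of muscle, heart and endothelium, was called lower, at 4.30 FPKM in positive cells, against 14.5 in negative cells. *Tbx5* had a log2 ratio of 0.75, and *Srf* had 4.14 FPKM in positive cells, against 6.52 in negative cells. Of 9 genes in the list, 5 were measured, with a median log2 ratio of 0.75, beside −0.27 for all measured genes. With a pseudocount of 5 neither *Hand2* nor *Nr2f2* was called, and *Mef2c* was; under each rescaling of the libraries *Tbx5* was called higher too. *Nkx2-5*, the cardiac homeobox gene, and *Nr5a1*, a gonadal and adrenal factor, were listed at 0 in both libraries.

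The co-repressor genes through which Fog proteins act were mostly within 2-fold. All 14 genes of NuRD subunits and CtBP proteins were measured; 13 were within 2-fold and 1 was called lower, *Mbd2*, a methyl-CpG binding subunit, at 9.07 FPKM in ScxGFP-positive cells, against 21.9 in ScxGFP-negative cells. Its log2 ratio was −1.19, or −0.92 relative to the median of all measured genes, and the call was lost under each rescaling of the libraries and with a pseudocount of 5. *Chd4*, the NuRD remodeller, had 29.9 FPKM in positive cells, against 38.2 in negative cells. The deacetylase genes were at 32.5 in positive and 35.3 in negative cells (*Hdac2*) and at 22.1 in positive and 36.5 in negative cells (*Hdac1*). *Gatad2b*, a subunit with a GATA-type finger, had 37.6 FPKM in positive cells, against 41.7 in negative cells. The median log2 ratio of the list was −0.43. Of the other genes with a GATA-type finger, *Trps1*, a repressor of skeletal development, had 12.1 FPKM in positive cells, against 10.3 in negative cells. *Rere* had 12.7 in positive and 14.7 in negative cells and *Gatad1* 7.59 in positive and 9.33 in negative cells, and none of the 3 measured genes was called.

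**Figure D4:**
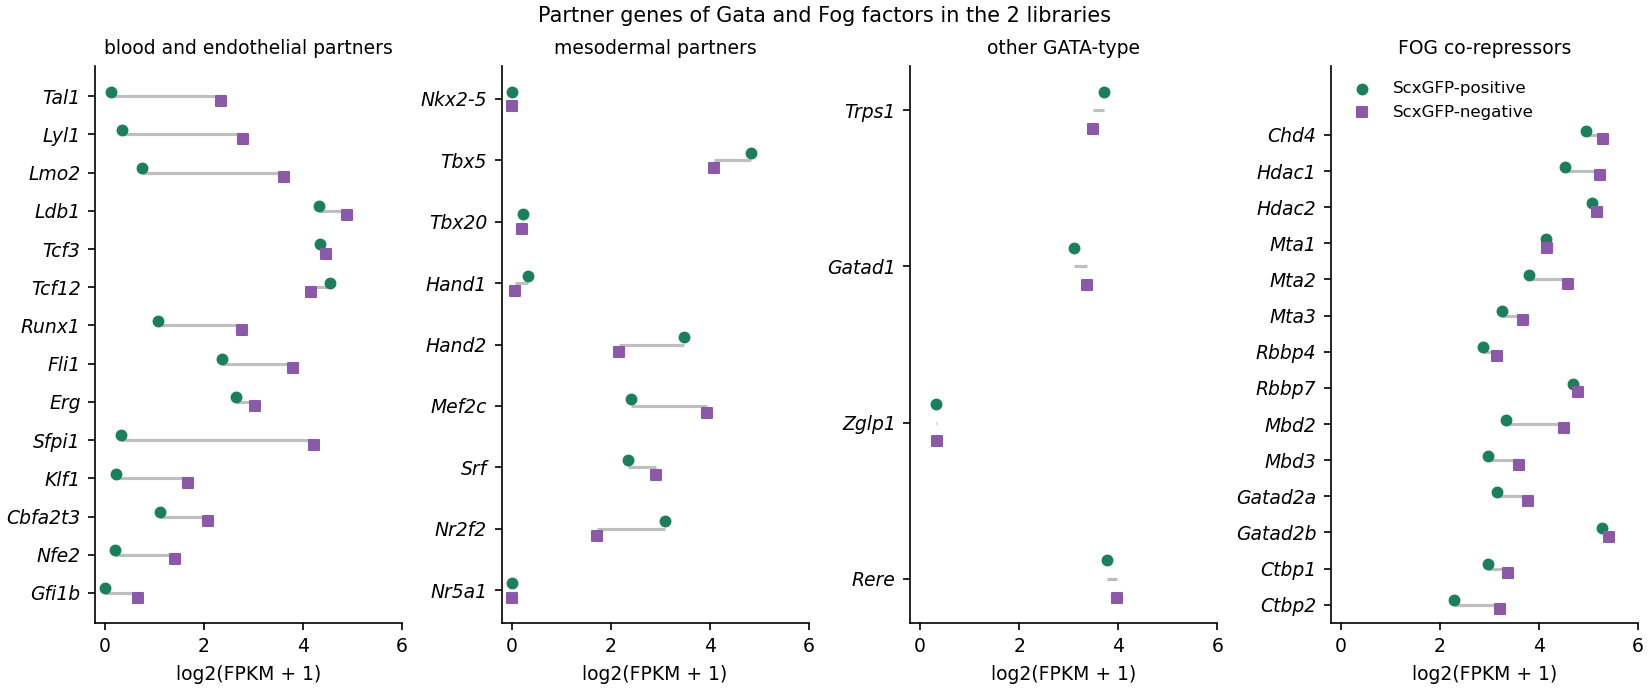
Level of each partner gene as log2(FPKM + 1) in the ScxGFP-positive library (circles) and the ScxGFP-negative library (squares), 1 library each, in 4 panels for blood and endothelial partners, mesodermal partners, other genes with a GATA-type finger, and Fog co-repressors. Wide gaps with the circle on the left stand in the first panel, for example Sfpi1 at 0.251 FPKM in positive and 17.6 in negative cells, while the co-repressors lie close together.

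Most measured markers of mast cells, red cells, endothelium, epidermis and macrophages were called lower in ScxGFP-positive cells, and their part in the Gata differences was not tested. Many of them were under 1 FPKM in positive cells and could not be called higher: of these, 8 of 8 mast cell, 4 of 6 erythroid, 11 of 11 endothelial, 5 of 6 epidermal and 6 of 6 macrophage genes were called lower, beside 51.8% of all such genes. Of those with at least 1 FPKM in positive cells, 2 of 2 mast cell, 4 of 5 erythroid, 0 of 2 endothelial, 5 of 5 epidermal and 6 of 6 macrophage genes were called lower, beside 4.75% of all such genes. Of 12 mast cell and basophil genes 10 were measured and all 10 were called lower; the list summed to 6.55 FPKM in ScxGFP-positive cells, against 402 in ScxGFP-negative cells. The histamine synthesis gene *Hdc* had 0.202 FPKM in positive cells, against 20.8 in negative cells, and the receptor gene *Kit* 2.38 in positive and 19.1 in negative cells. The protease gene *Cpa3* had 1.85 FPKM in positive cells, against 271 in negative cells, while *Mcpt4*, *Fcer1a* and *Ms4a2* were listed at 0 in positive cells. Of 11 erythroid genes with a value, all measured, 8 were called lower and 0 higher, and the list summed to 161 FPKM in positive cells, against 6440 in negative cells, with none at 0. Among these was the haem synthesis gene *Alas2* (2.51 FPKM in positive, 81.1 in negative cells).

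Endothelial genes summed to 10.2 FPKM in ScxGFP-positive cells, against 73.6 in ScxGFP-negative cells, with none of 16 at 0 in either library. Of 13 measured, 11 were called lower and 0 higher, and 5 lower with a pseudocount of 5. *Robo4*, a vascular guidance receptor gene, had 0.0864 FPKM in positive cells, against 3.24 in negative cells. *Prox1*, which marks lymphatic endothelium but is also expressed in muscle and other tissues, had 5.41 FPKM in positive cells, against 2.22 in negative cells. Epidermal genes summed to 14.9 FPKM in positive cells, against 362 in negative cells, and 10 of 11 measured genes were called lower. Among these were *Trp63*, the regulator of basal epidermis (0.960 FPKM in positive, 17.4 in negative cells), and the cadherin gene *Cdh1* (0.404 in positive, 14.7 in negative). None of the 12 epidermal genes was at 0.

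Macrophage and leukocyte genes summed to 15.8 FPKM in ScxGFP-positive cells, against 444 in ScxGFP-negative cells, with none of 12 at 0 and all 12 called lower. Of 8 megakaryocyte genes 2 were measured and both were called lower, among them the platelet factor gene *Pf4* at 1.33 FPKM in positive and 21.6 in negative cells. That list summed to 2.35 FPKM in positive cells, against 26.9 in negative cells, and *Gp9* was at 0 in positive cells. T cell genes were scarce, with a sum over 8 genes of 2.07 FPKM in positive cells, against 6.81 in negative cells. Of these 2 were measured, *Cd3g* (0.046 FPKM in positive, 3.37 in negative cells, called lower) and *Cd3d* (1.59 in positive, 1.46 in negative), and *Cd3e* was at 0 in positive cells. Eosinophil genes summed to 1.23 FPKM in positive cells, against 3.87 in negative cells. Of 2 measured, *Prg2* was called lower (0.0969 in positive, 1.26 in negative cells) and *Il5ra* was within 2-fold (1.11 in positive, 1.23 in negative cells). *Ear1*, *Ear2* and *Ccr3* were at 0 in positive cells.

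The level of a marker in ScxGFP-positive cells, as a percentage of its level in ScxGFP-negative cells, varied widely within each list. The median was 0.717% in the mast cell list (range 0 to 23.5%), 2.77% in the eosinophil list (0 to 90.0%), 3.10% in the erythroid list (1.03 to 75.9%) and 4.65% in the macrophage list (1.26 to 15.0%). It was 4.81% in the epidermal list (2.75 to 32.2%), 5.61% in the endothelial list (2.66 to 243%), 10.6% in the megakaryocyte list (0 to 81.9%), 24.9% in the T cell list (0 to 109%) and 74.1% in the sympathetic neuron list (6.87 to 266%). The 1.90% of *Gata2*, the 6.50% of *Gata3* and the 48.5% and 47.1% of *Zfpm1* and *Zfpm2* each lie within the range of several lists. Ranges this wide would hold most percentages, so this says nothing about the genes. These percentages describe the libraries and assign no gene to a cell type.

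Of the markers of endoderm and heart, tissues known for *Gata4*, *Gata5* and *Gata6*, 1 reached 1 FPKM in either library. All 5 endoderm genes were listed at 0 in ScxGFP-positive cells, and *Foxa1*, *Foxa2* and *Afp* in ScxGFP-negative cells too; as for *Gata1*, such zeros can be failed estimates. The 7 cardiomyocyte genes summed to 2.56 FPKM in positive cells, against 1.94 in negative cells. The 1 measured gene was within 2-fold (*Tnni3*, 0.947 FPKM in positive, 1.48 in negative cells), and *Nppb* was at 0 in both libraries and *Myl7* in positive cells. Sympathetic neuron genes, a further site of *Gata2* and *Gata3*, summed over 7 genes to 0.190 FPKM in positive cells, against 0.425 in negative cells, with *Dbh* and *Phox2a* among those at 0 in both and *Th* at 0 in negative cells. Of 4 smooth muscle genes 1 was measured, the actin gene *Acta2*, and it was called higher. That list summed to 21.0 FPKM in positive cells, against 3.24 in negative cells, with none at 0. Most of the sum was *Acta2*, at 19.9 FPKM in positive cells, against 2.54 in negative cells. The other 3 genes of the list were under 1 FPKM in both libraries. Tendon genes, the lineage of the sort, summed to 603 FPKM in positive cells, against 63.9 in negative cells. Of these, 8 of 9 were called higher, 0 lower and none was at 0. The tendon list includes *Scx*, whose regulatory sequence drives the reporter, at 134 FPKM in positive cells, against 1.69 in negative cells. The call of *Scx* follows from the sort.

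**Figure D5:**
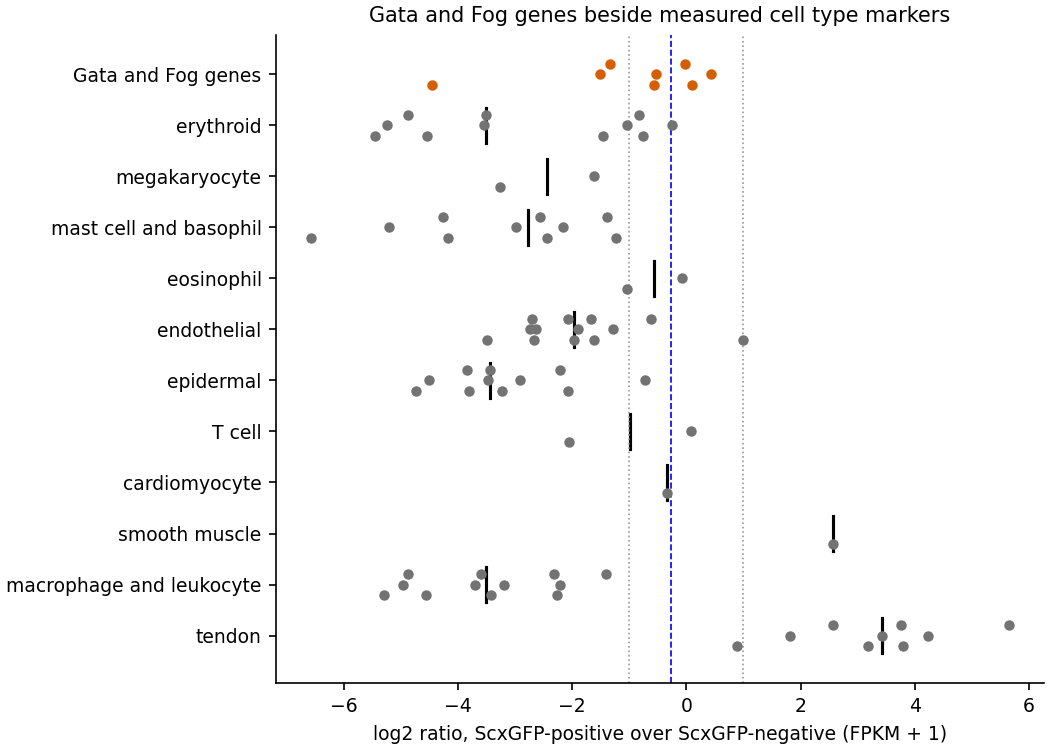
Log2 ratio, ScxGFP-positive over ScxGFP-negative on the FPKM + 1 scale, of the 8 Gata and Fog genes (orange) and of the measured genes of each marker list (grey), with list medians as black bars, 2-fold as dotted lines and the median of all measured genes, −0.27, as a dashed line. Medians lie left of 0 in all plotted lists but smooth muscle and tendon. Of the 8 Gata and Fog genes, 6 lie left of 0, with the place of Gata1 set by the pseudocount. Tendon markers, with Scx of the reporter among them, lie right of 0.

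The genes most like each member in level were taken as the 3 with the smallest distance in log2(FPKM + 1) over the 2 libraries, a measure on which unrelated genes can lie close together. For *Gata2* they were *Slc4a1*, the red cell anion exchanger (distance 0.30), *Krtdap*, a keratinocyte gene (0.35), and *Il2rg*, a cytokine receptor chain of lymphocytes (0.36). For *Gata3* they included *Rnf125* and *Klf1* (0.02 and 0.04), and for *Gata1* they were *Ifitm6*, the myeloid receptor gene *Trem2* and *Atp2a3* (0.01, 0.03 and 0.04). *Zfpm1* had *Ifi203*, *Fam185a* and *Zfpm2* nearest, the last at a distance of 0.02, and *Zfpm2* had *Fam185a*, *Fam134b* and *Ulbp1*.

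The nearest gene on each side of each member in mm9 was taken, 16 in all. Of these 9 were under 1 FPKM in both libraries and so could not be called, and the other 7 were within 2-fold; 14.0% of all measured genes were called in either direction. *Hdac6*, 11.4 kb from *Gata1*, had 2.41 FPKM in ScxGFP-positive cells, against 2.64 in ScxGFP-negative cells. *Rpn1*, 93.4 kb from *Gata2*, had 12.3 in positive and 14.1 in negative cells. *Dnajb8*, 15.2 kb on the other side of *Gata2*, was at 0 in both. Beside *Gata3*, the transcript of *4930412O13Rik*, 2.65 kb away, had 0.0970 FPKM in positive cells, against 0.658 in negative cells. The cDNA chemistry does not mark strand, and no transcript in the tables overlapped a member.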

How the data were processed

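ScxGFP-positive and ScxGFP-negative cells from pooled E13.5 forelimbs were sequenced, 1 library each. The submitters' processing notes name Bowtie 0.12.7, TopHat 1.4.1 and mm9 and no abundance program. Per the file headers the authors deposited, for each RefSeq transcript, a length, a coverage (estimated depth of aligned bases) and an FPKM with a status. Per the labels' protocols, cDNA was made with an amplifying kit, NuGEN Ovation RNA-Seq v2.

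FPKM was summed per symbol, and symbols with a failed row were missing, which left 22090 of 22096. Log2 ratios used a pseudocount of 1; measured genes (12096) reached 1 FPKM in one library or both. With 1 library per group, no test was run. Named were all members, list genes past 2-fold, up to 4 others of highest FPKM per list, the 3 genes nearest in level and chromosome neighbours. The members, lists and rules were chosen with earlier results of these data known. Some list genes are not reported here. Starts were converted to count from 1. Positions are mm9, except promoters (RefSeq, GRCm38.p6), of which those of 5 of 8 members were searched. The calculation was tested on simulated data. Python 3.11.15, pandas 2.3.3 and numpy 2.4.6 were used.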

Additional observations from a re-analysis of the deposited data

How the results depend on the processing

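Among members that reach the minimum FPKM, 3 were called lower and 0 higher with deposited values and under most of the 12 alternatives; *Gata6* passed 2-fold upward with a pseudocount of 0.1 but lies under that minimum. With a pseudocount of 5, 1 member was called lower (*Gata2*), as were 42 in place of 65 genes of the partner and marker lists (1 megakaryocyte gene, 0 T cell and 0 eosinophil genes among them), and 616 in place of 1695 of all genes passed 2-fold. With a minimum of 5 FPKM, 1 member (*Gata2*) and 981 genes did. The split of all genes past 2-fold depended on the scaling: it was 488 higher and 1207 lower with deposited FPKM, 802 and 811 with FPKM rescaled to equal sums, which moved the median log2 ratio of all genes from −0.27 to 0.10, and 989 and 809 when transcripts under 100 bases were left out of the sums. *Gata1*, at 0 in positive cells, is lower under any scaling, so its direction was fixed. Each rescaling raised values of positive cells relative to negative cells, so *Gata6* and *Gata4* could only stay higher, and *Gata5* changed sign. *Gata2* and *Gata3* stayed lower under each scaling. At 1.90% and 6.50% of their negative levels, their gaps were too wide for such scalings to reverse. No paired analysis was possible because each group has 1 library, and for the same reason no library could be left out. Depth limits the low members: the values of *Gata4* and *Gata5* rest on at most 1130 aligned bases, and in positive cells that of *Gata3* rests on 1089 and that of *Gata1* on 0.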
